A study of Mus musculus with 8 samples.

Results

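Cytosolic ribosomal protein genes are the 77 rows, of 16096 in the deposited gene table, whose gene name has the form Rpl or Rps followed by a number and at most a short suffix, together with Rpsa, Rplp0, Rplp1 and Rplp2. Rows named as pseudogenes and the Rps6k kinases were left out. By name they comprise 48 genes of the large subunit and 29 of the small subunit. The row named Rpl24 carries the identifier of Zbtb11 in the GENCODE M21 annotation, and the row named Rps4y2 that of a transcribed processed pseudogene. Both rows were kept in the subunit counts, sums and medians below, except where stated. Of the 77 rows, 75 had enough counts to be tested, all 48 of the large subunit and 27 of the small, and 2 of the small subunit did not. Rps13, Rps16, Rps27 and Rps29 were not analysed here. Fau and Rpl36al fall outside the naming rule and were counted with the translation factors.

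Peripheral retina was dissected from C57BL/6 mice at embryonic day 16.5 and its RNA sequenced. The 4 libraries labelled as conditional knockout (cKO) carry Pax6alpha-Cre with 1 loxP-flanked Ezh2 allele and 1 null allele, and the 4 control libraries carry the same Cre with the loxP-flanked allele and a wild-type allele. Ezh2 is the histone methyltransferase of Polycomb repressive complex 2. Pax6alpha-Cre acts in the peripheral retina, and cells that it does not reach keep a working floxed allele in both groups but have a null second allele only in the cKO embryos. The labels name no embryo or litter for a library, so the p-values refer only to how much these 8 samples vary, which may be partly technical.

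A ribosome consists of ribosomal RNA and mostly a single copy of each of the ribosomal proteins of a small subunit, which reads the mRNA, and a large subunit, which forms peptide bonds. Most of the proteins are thus needed in equal number. Their genes are transcribed at high rates in growing cells, and most of their mRNAs begin with a terminal oligopyrimidine (TOP) tract through which the mTOR kinase controls translation. The retina at this stage is rich in dividing progenitors, in which ribosome production is high. Ribosomal protein genes have also left many processed pseudogenes in the mammalian genome, near copies of the mRNA without introns, so a short read from such an mRNA can match several places.

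Sequences are shown first because the deposited levels varied with them. The following 60-base stretches of coding sequence (GENCODE M21, mm10) come from 5 members, with capitals for bases that lie in a 50-base word also found in another annotated gene. Rps3 is shown from its start codon as a member that shares few coding words, and the others as members with low or uneven counts.
Rps3: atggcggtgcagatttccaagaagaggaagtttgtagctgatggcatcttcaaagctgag
Rpl21: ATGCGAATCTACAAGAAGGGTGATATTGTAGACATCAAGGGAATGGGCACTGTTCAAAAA
Rps6: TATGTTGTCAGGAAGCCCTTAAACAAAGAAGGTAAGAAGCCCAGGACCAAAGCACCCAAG
Rpl34: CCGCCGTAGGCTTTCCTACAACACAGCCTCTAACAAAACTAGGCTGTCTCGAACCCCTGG
Rpl3: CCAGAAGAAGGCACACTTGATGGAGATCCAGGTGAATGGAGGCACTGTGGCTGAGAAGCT
For each printed stretch, the single 50-base word found in the most other genes was taken. That word occurred in 44 other genes for Rpl21, 13 for Rps6, 9 for Rpl34, 16 for Rpl3 and 0 for Rps3.

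The deposited FPKM, a level scaled by the length of the gene model and by depth, differed widely among the 77 members. The highest was Rpl8, a protein of the peptidyl transferase centre, at 732 ± 34.3 FPKM (SD over 8 libraries, both groups). Next came Rpl4, which lines the exit tunnel, at 699 ± 34.9 FPKM, the stalk protein Rplp1 at 529 ± 29.4, Rps15 at 466 ± 36.1 and Rps26 at 392 ± 39.1. The neighbours Rpl8 and Rpl4 lie within the SD of each other. Among the lowest were Rps6, the substrate of the S6 kinases, at 0.459 ± 0.133 FPKM, Rps27a, which is made as a fusion with ubiquitin, at 0.925 ± 0.328, and Rpl9 at 1.05 ± 0.0724. Across the large subunit the median was 15.2 FPKM, and across the small subunit it was 27.9 FPKM.

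The level of a member was lower where more of its coding sequence occurs elsewhere in the transcriptome. Coding sequence was available for 76 members, and the row named Rpl24 was left aside because its identifier belongs to Zbtb11 in GENCODE M21. Over the remaining 75, the share of coding 50-base words also found in other annotated genes and the mean FPKM had a Spearman correlation of -0.85, and a Pearson correlation with log2 FPKM of -0.74. This describes genes measured in the same 8 libraries, which are not independent replicates. The 24 members with every coding word shared had a median of 2.07 FPKM, with a highest value of 43.8. The 38 members with at least 50% but not all words shared had a median of 28.2 FPKM (1.47 to 529), and the 13 members under 50% had a median of 156 FPKM (29.8 to 732). All 19 members under 3 FPKM had at least 50% of their words shared. How reads with several matches were counted was not given in the sources used here, and the part of shared sequence in these levels was not tested.

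**Figure D1:**
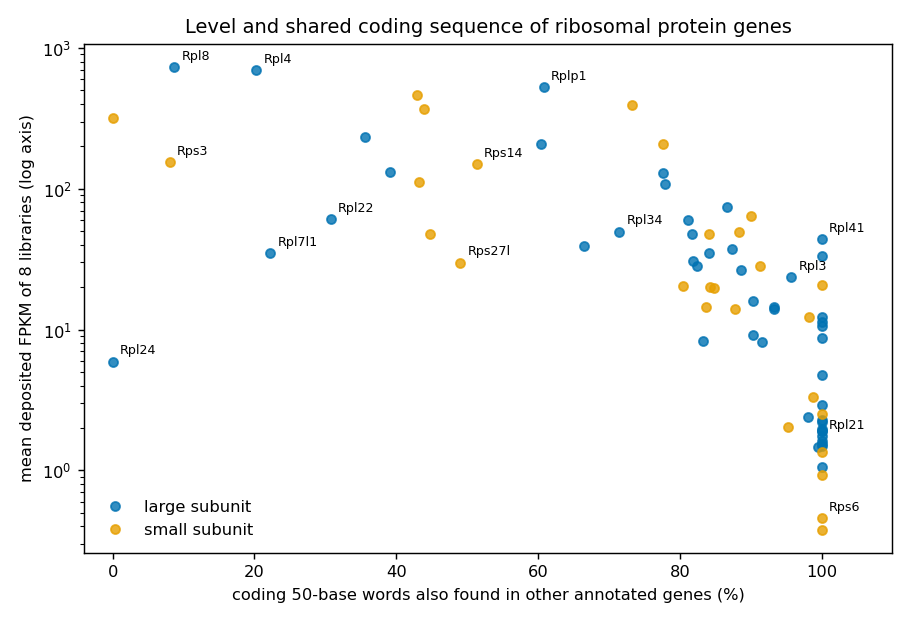
Mean deposited FPKM of each member over 8 libraries (vertical log axis) against the percentage of its coding 50-base words also found in other annotated genes, for 76 members, blue for the large and orange for the small subunit. Members with every word shared have a median of 2.07 FPKM, while Rpl8, Rpl4 and Rps3 lie at the upper left; the point named Rpl24 carries the identifier of Zbtb11.

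Rps3, at the mRNA entry, shared 8.05% of its coding words and had 156 ± 5.91 FPKM. Rpl8 and Rpl4 shared 8.69% and 20.2%. At the other end, Rpl21 shared 100% of its coding words and had 1.74 ± 0.300 FPKM. Over its whole mRNA, coding or not, words were shared with 82 other genes, of which 81 are annotated pseudogenes.

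Before the comparison of genotypes, some facts of the libraries bear on it. Totals ran from 13994825 to 18391647 counts. The mitochondrial rRNAs took 9.84% to 14.0% of the counts in the cKO libraries and 8.19% to 13.7% in the controls, with control replicates 1 and 3 near 13.7% and 13.5% and replicates 2 and 4 near 8.72% and 8.19%. By Xist, cKO replicates 2 and 3 were female and the other 6 libraries male. The whole-gene Ezh2 count was not lower in the libraries labelled cKO: 276, 251, 255 and 220 CPM (counts scaled to normalized library size) against 235, 230, 197 and 207 in the controls, a log2 difference of 0.21 with an adjusted p of 0.0701 in edgeR's quasi-likelihood test. Those counts cover the whole gene, and the labels do not say which part of it the loxP sites flank. All 12 retinal identity markers were counted, with summed levels of 3628 to 3905 CPM in cKO and 3869 to 4020 in control. Markers of other cells were low beside these: 5 of 7 lens genes gave 0.484 to 6.96 CPM in cKO and 0.351 to 10.8 in control, and 6 of 8 pigment epithelium genes 20.7 to 35.3 and 16.8 to 42.6. Of the 5 pigment epithelium genes tested, Rlbp1 was called higher (11.3 ± 2.16 against 8.37 ± 0.947 CPM). The other 4 were not called and had log2 fold changes below 0. All 9 mesenchyme genes were counted, with sums of 25.7 to 78.3 CPM in cKO and 23.8 to 51.2 in control; of the 8 tested, 3 were called higher, 0 lower, and the median log2 fold change was 0.69. All 8 erythroid genes summed to 91.9 to 877 CPM in cKO and 162 to 1297 in control. The sum of the 4 endothelial genes in the table, of 5 listed, was lower in every cKO library (270 to 308 CPM) than in every control (320 to 349). Most of that sum is Kdr, which was called lower (281 ± 17.2 against 332 ± 13.0 CPM), while Cldn5 was called higher (10.2 ± 1.33 against 7.52 ± 0.718). Pecam1 (not called) and Cdh5 (not tested) were near the floor, with means of 0.561 and 0.398 CPM over all libraries, so the sum says little about them. The sum of the 6 microglial genes was higher in every cKO library (34.5 to 41.1 CPM against 26.1 to 32.3), with 3 genes called higher and 3 not called. No counted marker was at 0 in all libraries.

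As a group, the ribosomal protein genes had a slightly lower mean summed level in the libraries labelled cKO, and few single genes passed the test. Summed over the members, the level was 7989, 7825, 8010 and 7329 CPM in the cKO libraries and 8399, 8290, 8126 and 7995 in the controls (7788 ± 317 against 8202 ± 178, SD, n = 4 each), a log2 ratio of -0.08. The groups overlapped by 1 pair, since cKO replicate 3 lay above control replicate 4. Large subunit genes summed to 4482 ± 215 CPM against 4717 ± 116, with overlap, because cKO replicates 1 and 3 lay above control replicate 4. Small subunit genes summed to 3307 ± 108 CPM against 3486 ± 63.1, where the highest cKO library (3416) lay just under the lowest control (3420). Shares of all counts, which do not use the normalization, ran from 0.323% to 0.347% for the small subunit in cKO and from 0.329% to 0.360% in control, and there the groups overlapped. The ratio of large to small subunit counts was 1.36 ± 0.0315 in cKO and 1.35 ± 0.0108 in control, a difference well within the spread. In such bulk tissue, fewer cells of a type and less RNA per cell cannot be told apart. The parts of mesenchymal, endothelial, microglial and mitochondrial RNA in this group difference were not tested.

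**Figure D2:**
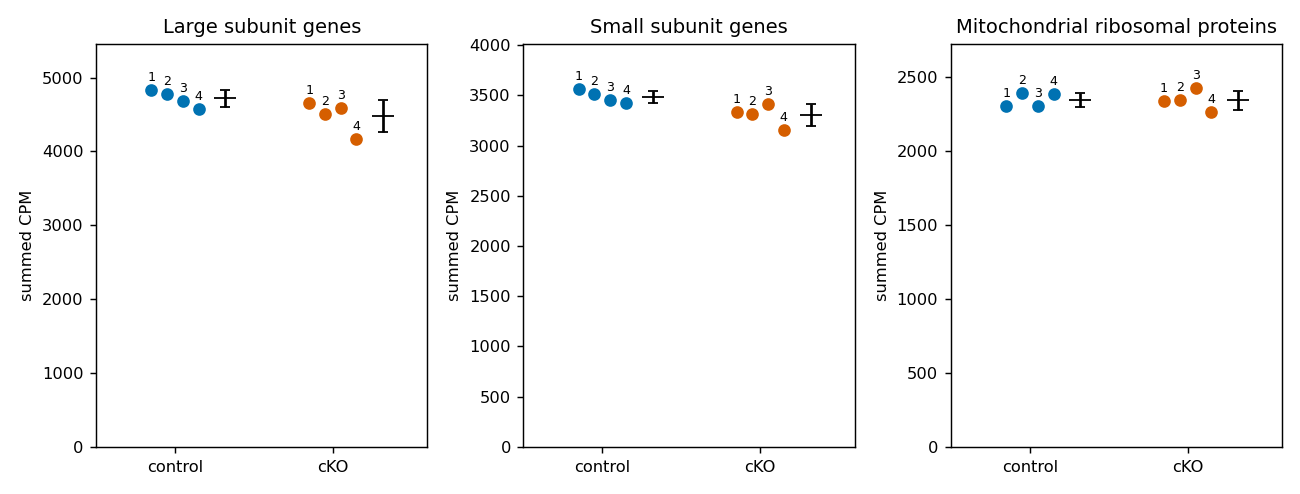
Summed level (CPM of normalized library size, axes from 0) of the large subunit genes, the small subunit genes and, beside them, the mitochondrial ribosomal protein genes; numbered points are libraries, and bars are the mean and SD of 4. Most cKO points of the cytosolic sums lie below the control points, with overlap for the large subunit and cKO replicate 4 lowest (7329 CPM over both subunits), and the mitochondrial sums overlap.

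The library labelled cKO replicate 4 was the lowest of the cKO group for 36 of the 54 members with a mean of at least 10 CPM, against 10 for replicate 1, 7 for replicate 2 and 1 for replicate 3. The median member in that library lay -0.16 (log2) from the mean of the 8 libraries, while the medians of the other cKO libraries lay between -0.03 and 0.01 and those of the controls between -0.02 and 0.06. With this library the median log2 fold change over the tested members was -0.07, and without it -0.04. The number of members below 0 was 60 of 75 with it and 52 of 76 without it.

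Gene by gene, 0 of the 75 tested members were called higher and 2 were called lower, at an adjusted p under 0.05 in edgeR's quasi-likelihood test (Benjamini-Hochberg over 15014 genes). Over all genes tested, 8.35% were called higher and 3.46% lower. The 2 of 75 called lower lie near that background share. With library size alone as the scaling, the calls over all genes were 1289 higher and 273 lower, against 1253 and 520, and 0 members were called in either direction. At an unadjusted p under 0.05, 8 members were lower and 1 higher, beside 10.2% and 13.9% of all genes. Of the tested members, 60 (80%) had a log2 fold change below 0, beside 52.4% of all genes, with 36 of 48 in the large and 24 of 27 in the small subunit. The median log2 fold change was -0.06 for the large subunit, -0.08 for the small subunit and -0.01 for all genes. Both female libraries are in the cKO group. The median over all members moved from -0.07 to -0.12 in the 6 male libraries alone and to -0.12 with sex as a covariate. In both fits the median of all genes stayed at -0.01. Either fit takes the genotype difference only from cKO replicates 1 and 4 against the controls, so they are not separate results. Replicate 4 is the library with the lowest median member (-0.16), and its part in this shift cannot be told apart from that of sex. These counts describe genes measured in the same libraries, so the members are not independent of each other. The 95% limits of the change lay within 1.25-fold in either direction for 49 of the 75 members and within 1.5-fold for 67.

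**Figure D3:**
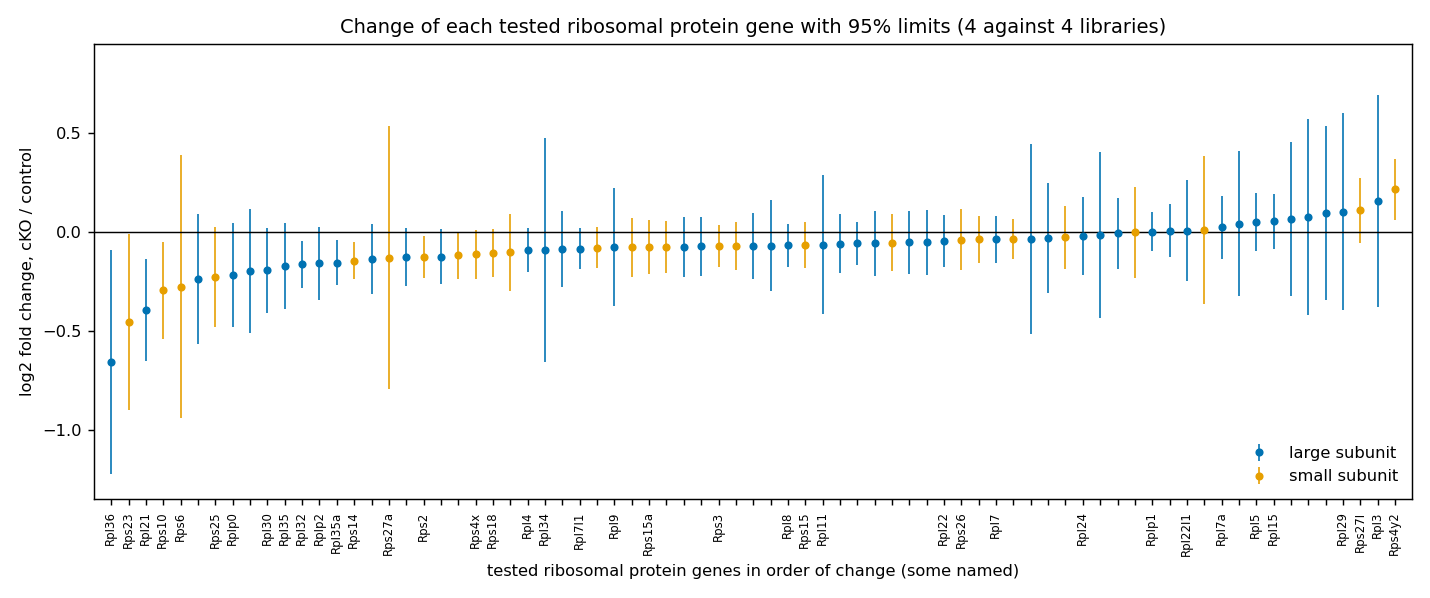
Log2 fold change (cKO over control) of the 75 tested members in order, some of them named, with 95% limits from edgeR's quasi-likelihood fit on 4 against 4 libraries; blue marks the large and orange the small subunit. Most points lie slightly below 0, from -0.66 for Rpl36 to 0.22 for Rps4y2, and wide limits belong to genes with few or uneven counts.

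The 2 genes called lower were Rps14 and Rpl21. Rps14, a protein of the small subunit platform (chr18:60747098-60778546, plus strand, mm10), stood at 198, 190, 202 and 195 CPM in the cKO libraries and at 222, 222, 221 and 203 in the controls. Every cKO library was below every control, although cKO replicate 3 and control replicate 4 were nearly equal. The log2 fold change was -0.15 (SE 0.04), with an adjusted p of 0.0424. Its annotated span overlaps Ndst1 on the other strand, and the sources used here do not say whether counting was by strand. Rpl21, a large subunit protein (chr5:146832890-146837032, plus strand), stood at 5.91, 4.11, 5.31 and 5.13 CPM in cKO and at 7.26, 6.42, 6.52 and 6.85 in control. These groups did not overlap either. The log2 fold change was -0.39 (SE 0.12), with an adjusted p of 0.0472, over 333 counts in cKO and 411 in control. Both adjusted p-values lie close to the threshold: across the alternative fits they ran from 0.0213 to 0.291 for Rps14 and from 0.0297 to 0.326 for Rpl21. When 1 library was left out, Rps14 kept its call only without control replicate 4 and Rpl21 only without cKO replicate 1; each lost it without any of the other 7, at log2 fold changes of -0.16 to -0.13 and of -0.42 to -0.31. Both fits that take embryo sex into account draw the genotype difference only from cKO replicates 1 and 4 against the controls, and neither gene was called in them. Rps14 had adjusted p-values of 0.160 (male libraries alone) and 0.164 (sex as a covariate), and Rpl21 of 0.294 and 0.326. Every coding word of Rpl21 also occurs in other annotated genes.

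**Figure D4:**
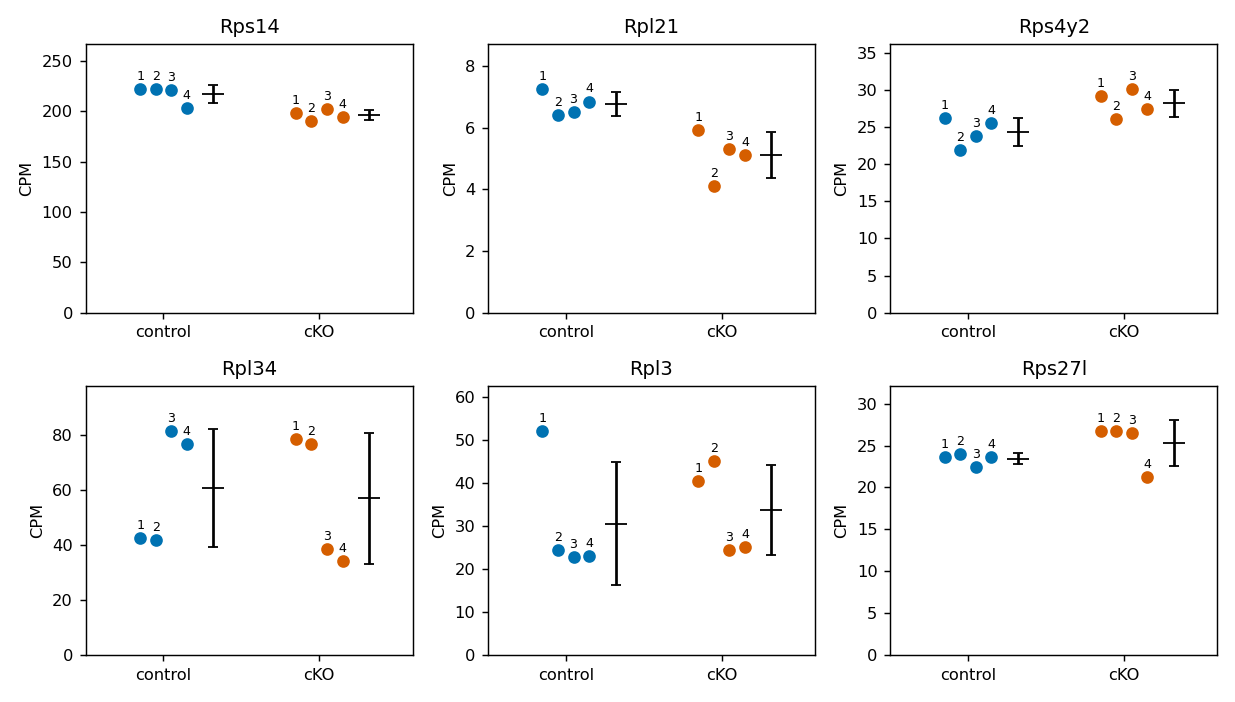
Level of 6 members in each library (CPM, axes from 0); numbered points are libraries, and bars are the mean and SD of 4 per group. Rps14 and Rpl21 do not overlap between groups, Rps4y2 overlaps slightly, and Rpl34 and Rpl3 vary about 2-fold within a group.

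In 7 of the 75 tested members every cKO library lay below every control, beside 6.21% of all genes, and in 0 the reverse held, beside 10.1%. Besides Rps14 and Rpl21 these included Rpl4, Rps2, Rpl35a and Rps18, which are named here because of these values. Rpl4 stood at 986, 940, 980 and 945 CPM in cKO and at 1052, 1018, 998 and 1037 in control, a log2 fold change of -0.09 (adjusted p = 0.309, edgeR). It is abundant and shares little of its sequence, and its groups were separated by a small margin. Rps2, at the mRNA entry, had means of 83.1 ± 3.84 and 90.6 ± 3.14 CPM, Rpl35a of 93.7 ± 5.01 and 105 ± 5.66, and Rps18 of 33.4 ± 2.18 and 36.0 ± 0.338 (SD, n = 4 each).

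The 6 members of at least 10 CPM with the lowest fold changes did not pass the test. Rps10, which is ubiquitinated when ribosomes collide, stood at 23.3, 27.5, 28.5 and 21.2 CPM in cKO and at 26.4, 29.4, 38.6 and 28.7 in control. The groups overlapped, and the log2 fold change was -0.30 (SE 0.11, adjusted p = 0.118, edgeR). It did pass with the 6 male libraries alone (-0.47, adjusted p = 0.0402) and with embryo sex as a covariate (-0.47, adjusted p = 0.0345). Those fits take the genotype difference only from cKO replicates 1 and 4, the lowest of the cKO libraries for Rps10. The stalk proteins Rplp0, Rplp1 and Rplp2, which recruit elongation factors, had log2 fold changes of -0.22, 0.00 and -0.16. Rplp0 varied from 274 to 400 CPM in cKO and from 303 to 435 in control, and Rplp1 was even, at 262 ± 9.92 and 262 ± 10.2 CPM. For Rplp1 the 95% limits of the log2 change were -0.10 and 0.10. Rplp2 stood at 77.0 ± 10.6 against 85.8 ± 7.39 CPM and passed only in the fits that take sex into account (-0.33 in each; adjusted p = 0.0251 in males and 0.0245 with the covariate). Rpl30, Rpl35 and Rpl32 had log2 fold changes of -0.19, -0.17 and -0.16, of which Rpl32 (234 ± 18.7 FPKM) came nearest to a call, with an adjusted p of 0.0738 in edgeR. Rpl32 was called with sex as a covariate (-0.23, adjusted p = 0.0438), without control replicate 1 (-0.19, adjusted p = 0.04997) and without the 2 libraries with lens crystallin counts (-0.22, adjusted p = 0.0363). The lowest of all tested members was Rpl36, at -0.66, with 48 counts in cKO and 72 in control and an adjusted p of 0.137 in edgeR.

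The highest fold change belonged to the row named Rps4y2, whose identifier is a transcribed processed pseudogene of the Rps4 family in GENCODE M21, named Rps4l there (chr6:148354656-148355598, plus strand). It stood at 29.2, 26.0, 30.2 and 27.5 CPM in cKO and at 26.2, 21.9, 23.8 and 25.5 in control. The groups overlapped at cKO replicate 2, and the log2 fold change was 0.22 (SE 0.07, adjusted p = 0.0687, edgeR). Without cKO replicate 2 it was 0.25, with an adjusted p of 0.0441. Its X-linked relative Rps4x, the gene for the ribosomal protein itself, had 101 ± 7.35 CPM in cKO and 109 ± 6.44 in control, a log2 fold change of -0.11 (adjusted p = 0.254, edgeR). The 2 rows thus had opposite signs, and neither passed the test; their difference was not tested.

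Paralogues of canonical members were also counted. Rps27l, a relative of Rps27 that p53 induces, stood at 26.7, 26.7, 26.5 and 21.3 CPM in cKO and at 23.7, 24.0, 22.4 and 23.7 in control. In 3 cKO libraries it was above every control, and cKO replicate 4 lay below all of them. The log2 fold change was 0.11 (95% limits -0.05 and 0.27). Rpl22l1 stood at 15.0 ± 2.07 against 15.0 ± 2.43 CPM, with limits of -0.25 and 0.26, and its partner Rpl22, at 60.6 ± 3.53 FPKM, had a log2 fold change of -0.05. Rpl7l1, which takes part in ribosome assembly, had a log2 fold change of -0.09, and Rpl7 had one of -0.04. Rpl5 and Rpl11, which with a ribosomal RNA bind and restrain Mdm2 when assembly is disturbed, had log2 fold changes of 0.05 and -0.06, the latter from 274 and 270 counts. Mdm2 itself stood at 68.1 ± 3.69 against 69.5 ± 1.64 CPM, and Trp53, the gene for p53, at 54.5 ± 4.88 against 55.4 ± 1.84. None of these 9 genes passed the test.

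The median log2 fold change was alike whatever share of its coding sequence a member had in common with other genes. It was -0.07 for the 22 tested members with every word shared, of which 16 were below 0, and -0.07 for the 38 with at least 50% shared, of which 32 were below 0. For the 13 under 50% it was also -0.07, with 11 below 0, and there the 95% limits lay within 1.25-fold for all 13. The highest of these 13 was Rps27l and the lowest Rpl32. Over the 54 members of at least 10 CPM, 45 were below 0.

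Rpl34 and Rpl3 were uneven within groups rather than between them, and were singled out after their values were seen. Rpl34, a large subunit gene (chr3:130726831-130730398, minus strand), stood at 78.5, 76.5, 38.6 and 34.0 CPM in cKO and at 42.5, 41.8, 81.4 and 76.6 in control. In each group 2 libraries were high and 2 low, with nothing in between, so the mean difference (log2 -0.09, limits -0.66 and 0.48) says little. Rpl3, at the peptidyl transferase centre (chr15:80077791-80091868, minus strand), stood at 40.5, 45.1, 24.5 and 25.1 CPM in cKO and at 52.2, 24.4, 22.9 and 22.9 in control. Of the 54 members with at least 10 CPM, these were the 2 whose highest library of a group was at least 1.5 times its lowest, beside 2.68% of 10193 genes of that level. Both also reached 2 times, beside 0.461%. The nearest tested genes of at least 10 CPM on either side, without overlap, were even. Ostc and Hadh around Rpl34 ran from 86.5 to 97.4 and from 61.1 to 69.9 CPM, and Cbx6 and Tab1 around Rpl3 from 67.4 to 76.2 and from 36.1 to 42.8. These genes need not adjoin the members: Hadh starts at chr3:131233419 and Cbx6 ends at chr15:79834688. In cKO, replicates 1 and 2 were the high libraries for both genes, while in control the high libraries differed. The mitochondrial rRNA share was 11.1% and 14.0% in cKO replicates 1 and 2 and 10.8% and 9.84% in replicates 3 and 4. In control replicates 1, 2, 3 and 4 it was 13.7%, 8.72%, 13.5% and 8.19%. Control replicate 1 was high for Rpl3 and low for Rpl34, while control replicates 3 and 4 were low for Rpl3 and high for Rpl34. Both genes share most of their coding words with other annotated genes, 71.5% for Rpl34 and 95.7% for Rpl3, and the parts of this and of the mitochondrial share in the unevenness were not tested.

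Start sites were examined for motifs of this gene class because most members had small changes of the same sign. RefSeq promoter windows (GRCm38.p6) matched 57 of the 77 members. The following stretches run from 35 bases before the start to 20 bases from it, on the gene's own strand; capitals mark the letters CTTTC, a C followed by pyrimidines as in a TOP tract, where they lie within 20 bases of the start. The first 4 hold it, and the last 2, from paralogues, do not.
Rps15a: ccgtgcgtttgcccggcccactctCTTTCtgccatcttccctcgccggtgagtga
Rpl15: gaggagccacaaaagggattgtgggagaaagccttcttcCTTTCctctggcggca
Rps10: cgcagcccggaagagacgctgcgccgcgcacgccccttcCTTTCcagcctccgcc
Rpl4: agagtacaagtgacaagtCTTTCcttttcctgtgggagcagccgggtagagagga
Rps27l: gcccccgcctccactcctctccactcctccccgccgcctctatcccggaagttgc
Rpl7l1: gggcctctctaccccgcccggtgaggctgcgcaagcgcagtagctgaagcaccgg
They lie at chr7:118116128-118116182, chr14:18270967-18271021, chr17:27635225-27635279, chr9:64173352-64173406, chr9:66946051-66946105 and chr17:46782637-46782691.

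CTTTC on the gene's strand, from 20 bases before to 19 after the start, was found for 17 of the 57 members (29.8%) and for 6.44% of 27025 genes. Over the whole window and on both strands, CCGGAAGT, the sequence that ETS family factors bind, was found for 12 members (21.1%) beside 4.31% of genes, and GCCATCTT, the core bound by YY1, for 5 (8.77%) beside 3.19%. TATAAA on the gene's strand, from 40 to 16 bases before the start, was found for 1 member, Rpl22l1, beside 2.41% of genes. The last 3 letters of GCCATCTT can also begin CTTTC; in the Rps15a stretch above, the YY1 core lies 1 base after CTTTC. Members with and without CTTTC had nearly the same change: a median of -0.08 for the 17, of which 11 were below 0, and -0.07 for the 39 tested without it, of which 35 were below 0. A match is a description of letters and not evidence of use.

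Other genes of the translation machinery were taken from lists. Of 27 translation factors and other TOP mRNAs, 0 were called higher and 0 lower by edgeR; at an unadjusted p under 0.05, 6 were lower and 0 higher, beside 10.2% and 13.9% of all genes. Their median log2 fold change was -0.07, with 22 below 0, beside 52.4% of all genes. The elongation factors Eef1a1 and Eef2 stood at 2867 ± 25.2 against 3030 ± 79.4 CPM and at 2613 ± 69.8 against 2784 ± 162. Pabpc1, the poly(A) binding protein, had the smallest p of the list (log2 -0.21, adjusted p = 0.0781, edgeR). Of 58 ribosome biogenesis genes, 0 were called in either direction, 6 were lower and 0 higher at an unadjusted p under 0.05, the median was -0.04 and 45 were below 0; the 6 of 58 lie near the 10.2% of all genes. Nucleolin (Ncl), which acts on ribosomal RNA, stood at 386 ± 59.4 against 457 ± 39.3 CPM. The cytosolic list thus had a median close to those of these partner lists, with the same sign.

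Mitochondrial ribosomal protein genes, which build the separate ribosome of that organelle, were evenly spread around 0. Of 75 tested, 0 were called in either direction by edgeR, 0 had an unadjusted p under 0.05, the median was 0.00 and 37 were below 0. Their summed level was 2341 ± 64.4 CPM in cKO and 2344 ± 48.6 in control. Rows named as ribosomal protein pseudogenes, near copies that can share reads with the members, numbered 26, of which 17 were tested. By edgeR 0 were called, 1 was lower and 0 higher at an unadjusted p under 0.05, and the median was -0.08.

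**Figure D5:**
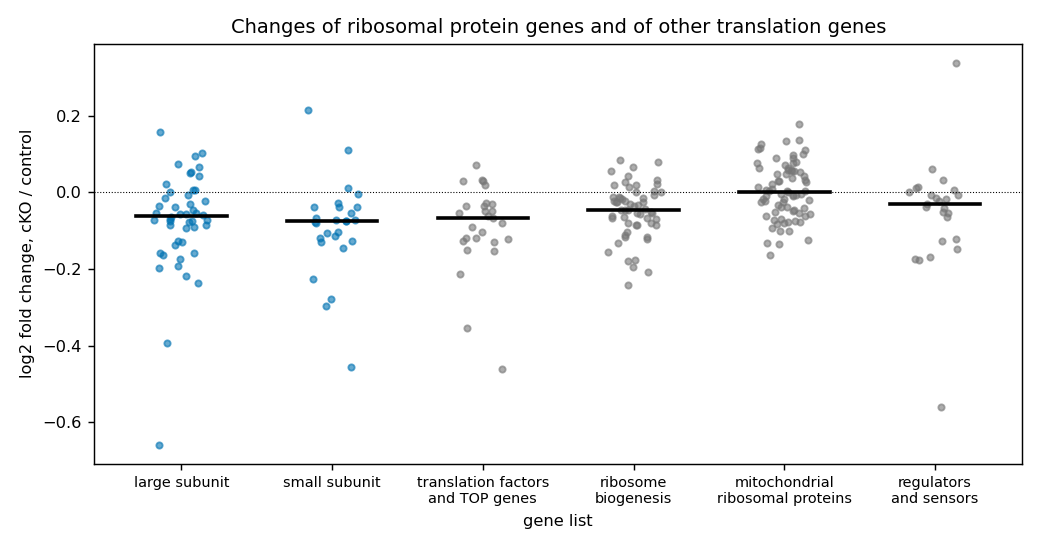
Log2 fold change (cKO over control) of each tested gene in 6 lists, with a bar at each list's median; blue marks the ribosomal protein genes. Medians lie between -0.08 for the small subunit and 0.00 for mitochondrial ribosomal proteins, and the lowest point among regulators is Eif4ebp1.

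Among 25 regulators and sensors of ribosomal protein synthesis, 2 fell and 0 rose, beside 3.46% and 8.35% of all genes. Eif4ebp1, which holds back cap-dependent initiation until mTOR phosphorylates it, stood at 13.7, 13.8, 15.8 and 16.6 CPM in cKO and at 21.1, 21.2, 21.0 and 24.7 in control. The groups were far apart, with a log2 fold change of -0.56 (SE 0.08, adjusted p = 0.0004, edgeR). Larp4b, an mRNA-binding protein of the La family, fell by 0.15 on the log2 scale (145.7 ± 4.83 against 161.3 ± 4.68 CPM, adjusted p = 0.0312, edgeR). Larp1, which binds the TOP tract, stood at 91.9 ± 6.33 against 100.2 ± 4.92 CPM (adjusted p = 0.199, edgeR). Mycn (35.0 FPKM), a Myc family activator of ribosome production, and Mtor had log2 fold changes of -0.01 and -0.04. The other genes of the list with an unadjusted p under 0.05 included Rps6ka1 (0.34, adjusted p = 0.0531), Rptor (-0.17, adjusted p = 0.0590), Mycl (-0.13, adjusted p = 0.0836) and Rps6kb2 (-0.17, adjusted p = 0.156), none of which passed edgeR's test after adjustment.

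In the authors' deposited table, 63 of the 77 members had a log2 ratio below 0 and the median was -0.07. Read as 10 times the negative log10 of an adjusted p, the authors' deposited table calls 1 member lower, Rps14, and 0 higher. The scale of that column is not named in the file. DESeq2 fitted here to the deposited counts also called 1 member lower, Rps14, and 0 higher, beside 3.47% and 7.26% of all genes.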

How the data were processed

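RNA-seq of 4 cKO and 4 control libraries was analysed from a single deposited table. The submitters' processing notes name Novoalign 2.08.01 as aligner, mm10 and DESeq2. How genes were annotated and counted, by strand or not, and what became of reads with several matches was not given in the sources used here. Per gene, the authors deposited whole-number counts, and the lowest row sum is 18. The FPKM columns are the authors' levels per length, per the file headers. The authors' log2 ratio and their adjusted p column, a score on an unnamed scale, were used only as descriptions.

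Counts were tested with edgeR 4.0.16 (R 4.3.3; TMM, filterByExpr with a minimum count of 10, glmQLFit, glmQLFTest, no covariate), with Benjamini-Hochberg adjustment over 15014 genes and a threshold of 0.05. Alternatives were DESeq2 1.42.0, other scalings and filters, a length trend, sex, subsets of libraries, a replicate block and leaving out each library. CPM uses normalized library sizes, and 95% limits come from the quasi-likelihood fit. The procedure was tested on simulated data. Coordinates and coding sequence are from GENCODE M21, in which 263 identifiers of the table have no match, and promoters from RefSeq; a coding word counts as shared when the same 50 bases occur in another gene's transcript.

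The members and all lists were chosen with earlier results of these data known. Named genes were the called members, the 6 highest and 6 lowest changes at 10 CPM or more, the 6 highest and 4 lowest FPKM, paralogues with their partners, Rpl5 and Rpl11; others are named for their values, which had been seen. Rpl3, Rpl29, Rpl34 and the motifs were chosen after seeing the data. Certain members are not reported by name here.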

Additional observations from a re-analysis of the deposited data

Results flagged for a closer look

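In 4 of 70 groups of 4 libraries examined (35 named genes, each in cKO and control), 1 library stood far from the other 3. Chance marks about 1 group in 20 in this way. Rpl3 had its highest control library, replicate 1, at 52.2 CPM, with the other controls at 22.9 to 24.4. Rps14 had its lowest control library, replicate 4, at 203 CPM, with the others at 221 to 222; this is the control nearest to the cKO libraries, and leaving it out gave a log2 fold change of -0.18. Rps27l had its lowest cKO library, replicate 4, at 21.3 CPM, with the others at 26.5 to 26.7. Rps4x had its highest control library, replicate 3, at 119 CPM, with the others at 106.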

How the results depend on the processing

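The median log2 fold change over the members stayed below 0 in every alternative run, from -0.12 (male libraries alone) to -0.04 (without cKO replicate 4); leaving out single libraries gave -0.09 to -0.04. The small subunit median moved from -0.08 to -0.13 with male libraries alone and to -0.13 with sex as a covariate. Both of those fits take the genotype difference only from cKO replicates 1 and 4 against the controls. The number of members called lower was 2 and moved to 1 with DESeq2 (Rps14), 0 with library size only, 0 with a minimum count of 50, 1 without the 2 libraries with lens crystallin counts (Rpl32), 0 with controls 1 and 3 only, 1 with controls 2 and 4 only (Rps25), and 0 to 1 when each library was left out in turn. It was 3 with sex as a covariate (Rpl32, Rplp2 and Rps10) and 2 with male libraries alone (Rplp2 and Rps10), so that Rps14 and Rpl21 were called in neither. Over 2 subsets chosen after seeing the data it was 1 (members of at least 10 CPM) and 0 (members under 50% shared). The number called higher was 0, and 1 (Rps4y2) without the lens libraries or without cKO replicate 2; leaving out single libraries gave 0 to 1. The cause of these changes was not tested. Of 802 values of single genes under an alternative, 30 lost a call, 14 gained one, 758 kept theirs and 51 uncalled ones changed sign.

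Whether the replicate numbers pair the samples is not known, since the labels name no litter. Same-numbered deviations correlated at 0.234, -0.0867, 0.00546 and 0.17, and 2 cKO libraries, replicates 1 and 4, correlated best with their own number. These few values, of mixed sign, cannot decide it. With a replicate block, 2 members were called lower, Rpl21 and Rps10, and the median was -0.07. Members under 10 CPM, 23 of 77, are limited by depth: the 95% limits lay within 1.25-fold for 3 of the 21 tested.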

Other observations

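Rpl29, a large subunit gene that was not among the members of at least 10 CPM, was also uneven within both groups. It stood at 4.41, 9.75, 9.31 and 7.17 CPM in cKO and at 8.46, 4.85, 5.54 and 9.19 in control. The nearest tested genes of at least 10 CPM on either side, Dusp7 and Acy1, ran from 16.4 to 21.5 and from 10.3 to 13.3 CPM. The high libraries of Rpl29 did not match those of Rpl34 or Rpl3. Rpl29 shared 90.3% of its coding words with other annotated genes, and its whole mRNA shared words with 82 other genes.

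Outside the naming rule, Fau, which is made as a fusion with a ubiquitin-like protein, stood at 1.59 ± 0.386 CPM in cKO and 2.04 ± 0.252 in control (log2 -0.35, adjusted p = 0.327, edgeR). Gnb2l1, the gene of the small subunit scaffold RACK1, stood at 806.5 ± 34.6 and 875.4 ± 12.4 CPM (log2 -0.12, adjusted p = 0.179, edgeR).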
